A study of Mus musculus with 20 samples.

Results

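The genotype by obstruction interaction was measured in RNA of the left kidney of male mice. It is the response to unilateral ureteral obstruction (UUO) in KDM6A TubKO mice minus the response in KDM6A Ctrl mice, each response being UUO minus sham on the log2(FPKM + 1) scale. All 20 of the 20 kidneys of the series entered it, 5 for each genotype and surgery, and all 13842 protein-coding genes in the deposited gene table were tested. KDM6A TubKO mice carried a floxed *Kdm6a* allele on their single X chromosome (genotype Kdm6afl/Y Pax8Cre+) and KDM6A Ctrl mice carried the recombinase alone (Pax8Cre+), so that Cre was common to all 4 groups. The study describes the Cre of these mice as confined, within the kidney, to the tubule epithelium. Whether all other cells in the sampled tissue kept *Kdm6a* was not measured here. Kidneys were taken 1 week after surgery and each gave 1 library of whole-kidney RNA, so that fewer cells of a type and less RNA per cell cannot be told apart. FPKM are fragment numbers relative to the length of the transcript and the size of the library. They hold no fragment counts, so the depth reached by each library is unknown, and the study's methods give only a nominal read number for the sequencing service.

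KDM6A, also called UTX, is a demethylase that takes methyl groups off lysine 27 of histone H3, where trimethylation (H3K27me3) marks silenced genes, and it also belongs to complexes that methylate H3K4 at enhancers. Obstruction of the ureter stretches and injures the tubule, which then loses transport and mitochondrial metabolism while macrophages and fibroblasts accumulate. An interaction asks whether loss of KDM6A in the tubule changes that response, and it can come from a genotype difference in sham kidneys, in UUO kidneys or in both. A positive interaction is a larger rise or a smaller fall in KDM6A TubKO kidneys, and a negative interaction is a smaller rise or a deeper fall.

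The libraries were first checked for features that could move with the groups. Markers of the proximal tubule, loop of Henle, collecting duct and podocytes were present in all libraries. KDM6A Ctrl UUO kidney 5 had a mean of 2.71 log2(FPKM + 1) over 6 adrenal cortex genes, against 0.15 to 0.31 in the other KDM6A Ctrl UUO kidneys, and a mean of 4.73 over 9 perirenal fat genes, against 1.24 to 1.96. In KDM6A Ctrl sham kidney 3 *Havcr1*, which encodes the injury protein KIM-1, was at 55.1 FPKM, against 0.29 to 1.37 in the other kidneys of that group. The mouse identifiers fell into a lower and a higher number series, whose meaning the labels do not give. KDM6A TubKO sham kidneys were mostly from the higher series (4 of 5), whereas the other groups had 3 kidneys from the lower series and 2 from the higher one, and most lists below are also given within each series. Within the lower series the single KDM6A TubKO sham kidney was assumed to vary like the other groups. Within a group, kidneys also shared identifier numbers. The 20 kidneys carried 10 numbers, 2 in each KDM6A Ctrl group and 3 in each KDM6A TubKO group, and none of the 10 occurred in more than 1 group. What a shared number marks is not given in the labels, and differences between numbers cannot be fully separated from the group. Within the lower series each group carried only 1 number, so number and group cannot be told apart there. In the KDM6A Ctrl groups the 2 numbers were 1 from each series, so number and series cannot be told apart in them. With the number as a random effect in limma, the correlation within a number was 0.0258, and the same 4 genes passed at adjusted p as with the kidneys taken as separate. Libraries also differed in how FPKM depended on transcript length. The slope on log2 length, in log2(FPKM + 1) per doubling, was 0.0053 to 0.080 in KDM6A Ctrl sham kidneys and -0.087 to 0.0052 in KDM6A TubKO sham kidneys, and it was -0.021 to 0.053 and -0.048 to 0.013 in the corresponding UUO groups. Short transcripts were therefore measured relatively higher in KDM6A TubKO sham kidneys.

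*Kdm6a* itself, on the X chromosome, was measured first. It was at 2.33, 2.14, 1.94, 1.76 and 2.10 FPKM in KDM6A Ctrl sham kidneys and at 1.61, 0.862, 1.57, 0.924 and 1.05 FPKM in KDM6A TubKO sham kidneys. After UUO it was at 2.30, 3.32, 3.24, 2.28 and 3.67 FPKM in KDM6A Ctrl kidneys and at 3.46, 2.03, 4.21, 3.06 and 2.46 FPKM in KDM6A TubKO kidneys. The sham groups did not overlap, whereas the UUO groups did. The interaction was 0.50 (standard error 0.20, limma adjusted p = 0.234). The level of the whole gene is a limited check of the genotype, because the targeted exon is a small part of the transcript. Cells that enter the obstructed kidney, which are not tubule cells, also add to this level. By immunoblotting, the study reported less KDM6A protein in kidneys of KDM6A TubKO mice and none in their primary tubule cells.

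Few single genes passed the test for a different response in the 2 genotypes. With 5 kidneys per group, a gene that did not pass may still respond differently. At a Benjamini-Hochberg adjusted p under 0.05 in limma, 4 genes (0.0289%) had an interaction, of which *Rbak* and *Gm6133* were positive and *Atp5e* and *Foxm1* negative. At an unadjusted p under 0.05, 1262 genes (9.12%) had a positive interaction and 909 (6.57%) a negative one. These 2 shares are the background for the gene groups below in the fit of all 20 kidneys. Counts within a number series are to be read beside the counts over all genes in that series, which end this paragraph. With a difference of at least 1.5-fold added, as the study used for pairs of groups, 173 genes (1.25%) were positive and 233 (1.68%) negative. The median interaction over all genes was 0.03. It was -0.06 in the higher series alone and 0.12 in the lower series alone, and the balance of directions moved with it, from 528 positive and 1297 negative genes in the higher series to 1208 positive and 304 negative genes in the lower series.

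Most differences in response were differences of size. Averaged over both genotypes, a contrast that is independent of the interaction in groups of equal size, 8643 genes (62.4%) rose and 2539 (18.3%) fell at adjusted p. Among genes that rose, 1035 (12.0%) had a positive and 369 (4.27%) a negative interaction at unadjusted p, and among genes that fell, 86 (3.39%) were positive and 356 (14.0%) negative. Among the 596 genes that fell by at least 1 on the log2 scale, the median response was -1.35 in KDM6A Ctrl kidneys and -1.60 in KDM6A TubKO kidneys. Of the 1262 positive genes, 1006 had a larger rise in KDM6A TubKO kidneys, 79 a smaller fall and 177 a fall in KDM6A Ctrl and a rise in KDM6A TubKO kidneys, by the sign of their estimates. Of the 909 negative genes, 353 had a smaller rise, 325 a deeper fall and 231 a rise in KDM6A Ctrl and a fall in KDM6A TubKO kidneys. The genotype difference was the larger one in sham kidneys for 581 of the positive and 438 of the negative genes, and in UUO kidneys for the others.

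*Foxm1*, a transcription factor that drives genes of mitosis, had a rise after UUO that was seen in KDM6A Ctrl kidneys only. It was at 0.142, 0.108, 0.259, 0.0662 and 0.0708 FPKM in KDM6A Ctrl sham kidneys and at 0.920, 1.71, 1.63, 0.673 and 1.32 FPKM in KDM6A Ctrl UUO kidneys. In KDM6A TubKO kidneys it was at 0.118, 0.148, 0.0635, 0.144 and 0.102 FPKM after sham surgery and at 0.217, 0.114, 0.198, 0.0626 and 0.0938 FPKM after UUO. The KDM6A Ctrl UUO kidneys thus stood above all the others, and the 2 KDM6A TubKO groups overlapped. *Foxm1* met the filter of 0.5 FPKM only through the KDM6A Ctrl UUO group, and its levels in the other groups were near the floor. A small rise in KDM6A TubKO kidneys could therefore be missed. The gene shares 691 bases with *Tex52* and 644 with *Gm44596*, both on the same strand. The interaction was -0.95 (standard error 0.15, limma adjusted p = 0.0167), and it was -0.93 and -0.96 in the higher and lower series. Few other genes of the cell cycle passed at unadjusted p. Of 60 genes of S phase, spindle and cytokinesis, *Foxm1* included, 59 rose in KDM6A Ctrl and 59 in KDM6A TubKO kidneys, with median responses of 1.15 and 1.16. Besides *Foxm1* only *Mcm4*, a subunit of the replicative helicase, had an unadjusted p under 0.05, with an interaction of 0.31. In the higher series alone 18 of the 60 were negative and none positive (median -0.34), against 1297 and 528 of all 13842 genes. In the lower series their median was -0.03. With 1 kidney left out up to 9 were negative (9 without KDM6A TubKO UUO kidney 1 and 6 without KDM6A Ctrl UUO kidney 1).

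*Rbak*, a KRAB zinc finger protein that binds the retinoblastoma protein, rose more in KDM6A TubKO kidneys. It was at 2.69, 2.38, 2.55, 2.43 and 2.27 FPKM in KDM6A Ctrl sham kidneys, at 3.24, 3.05, 3.29, 3.85 and 4.32 FPKM in KDM6A Ctrl UUO kidneys, at 2.02, 2.14, 2.13, 2.15 and 2.31 FPKM in KDM6A TubKO sham kidneys and at 5.55, 4.97, 5.39, 6.60 and 6.20 FPKM in KDM6A TubKO UUO kidneys. The UUO groups did not overlap, and the interaction was 0.70 (standard error 0.11, limma adjusted p = 0.0167). The listed protein-coding transcript of the gene did not carry this rise. Rbak-201 had mean levels of 0.93, 0.56, 0.66 and 0.01 FPKM in the groups in the same order, and other transcript models of the gene were not analysed here.

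*Gm6133*, a gene model without an assigned name, was at 0.522, 0.337, 0.795, 0.421 and 0.893 FPKM in KDM6A Ctrl sham kidneys and at 1.31, 0.861, 1.17, 1.42 and 1.23 FPKM after UUO. In KDM6A TubKO kidneys it was at 0.339, 0.028, 0.413, 0.458 and 0.543 FPKM after sham surgery and at 2.95, 2.34, 3.11, 4.17 and 3.36 FPKM after UUO. The UUO groups did not overlap, and the interaction was 1.15 (standard error 0.18, limma adjusted p = 0.0167). It lies at chr18:78349754-78350701 (GRCm38), where all of its 948 bases are within the span of the urea transporter gene *Slc14a2* on the opposite strand, and whether the counting used strand is not given in the sources used here. The 4 calls were lost under some settings while the differences kept their size. Without KDM6A TubKO UUO kidney 5, and with the mean level of urothelium genes as a covariate, none of the 4 genes passed, with adjusted p of 0.0529 and of 0.0663 to 0.0782, and none passed within a number series alone. The interactions of *Atp5e*, *Foxm1*, *Rbak* and *Gm6133* were -0.99, -0.93, 0.68 and 1.14 without that kidney and -1.05, -0.87, 0.69 and 1.03 with the covariate. Without KDM6A TubKO UUO kidney 2, KDM6A Ctrl sham kidney 4 or KDM6A Ctrl UUO kidney 5, the number of genes that passed was 96, 71 and 28.

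**Figure D1:**
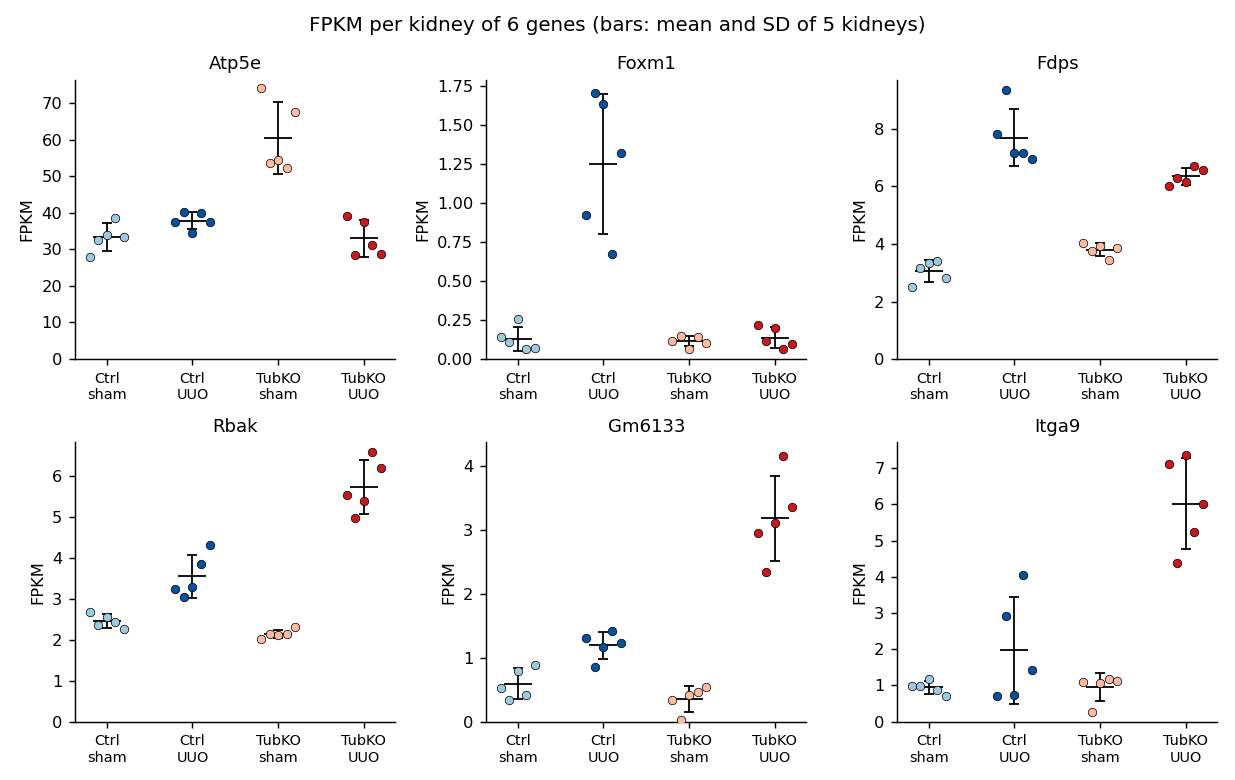
FPKM of 6 genes in each kidney (points), with the mean and SD of the 5 kidneys of a group, on axes that start at 0. *Foxm1* was high in KDM6A Ctrl UUO kidneys alone, *Fdps* was highest in the same group, *Atp5e* was high in KDM6A TubKO sham kidneys alone, and *Rbak*, *Gm6133* and *Itga9* were highest in KDM6A TubKO UUO kidneys.

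Genes of oxidative phosphorylation were, by number, the gene list with the most negative interactions. These genes encode the subunits of respiratory complexes I to V, which make ATP in mitochondria. Of 91 measured, 47 (51.6%) had a negative and 1 (*Atp5s*) a positive interaction at unadjusted p, with a median of -0.29. In KDM6A Ctrl kidneys 55 fell and 10 rose after UUO (median -0.32), and in KDM6A TubKO kidneys 73 fell and 4 rose (median -0.56). The genotypes were apart before obstruction and close together after it. The list mean was 5.96 to 6.22 in KDM6A Ctrl sham and 6.27 to 6.45 in KDM6A TubKO sham kidneys, which did not overlap, and it was 5.78 to 5.89 in KDM6A Ctrl UUO and 5.76 to 5.90 in the UUO kidneys of KDM6A TubKO mice. By adjusted p, 42 of the 91 genes were higher in KDM6A TubKO sham than in KDM6A Ctrl sham kidneys, and 2 were higher and 2 lower in UUO kidneys.

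*Atp5e*, the epsilon subunit of ATP synthase, had the largest such difference. It lies at chr2:174461072-174464105 (GRCm38) and was at 27.9, 32.5, 34.0, 38.6 and 33.3 FPKM in KDM6A Ctrl sham kidneys and at 74.0, 53.5, 54.5, 52.2 and 67.6 FPKM in KDM6A TubKO sham kidneys. After UUO it was at 37.4, 40.2, 34.5, 39.9 and 37.3 FPKM in KDM6A Ctrl kidneys and at 39.1, 28.5, 37.3, 31.3 and 28.6 FPKM in KDM6A TubKO kidneys. The KDM6A TubKO sham kidneys stood above the 3 other groups. The interaction was -1.04 (standard error 0.16, limma adjusted p = 0.0167), and it was -1.15 for its transcript Atp5e-201. *Ndufa4*, a cytochrome oxidase subunit, was at 103 to 124 FPKM in KDM6A Ctrl sham and at 139 to 162 FPKM in KDM6A TubKO sham kidneys, and at 90.6 to 105 and 84.1 to 96.0 FPKM after UUO (interaction -0.47, adjusted p = 0.0653). *Ndufa2*, a complex I subunit, was at 105 to 142 and 172 to 236 FPKM in the sham groups and at 163.3 to 199 and 162 to 225 FPKM in the UUO groups (interaction -0.69, adjusted p = 0.0771).

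The bases before the start of these genes were searched for the motif of NRF1, a transcription factor of respiratory chain genes, because the genes moved together. RefSeq promoters (GRCm38.p6) were matched for 73 of the 91 genes. The letters GCGC, then A, any base and GCGC in 1 run, on either strand, stood in the 250 bases before the start in 14 of them (19.2%), against 917 of 10699 promoters of all genes tested (8.57%). For the cytosolic ribosome list, described below, 1 of 62 promoters held these letters (1.61%). For the mitochondrial ribosome list 10 of 69 did (14.5%), and for zinc finger genes 24 of 288 (8.33%). Within the oxidative phosphorylation list the letters stood in 7 of 40 genes with a negative interaction at unadjusted p and in 7 of 33 other members. Over the 91 genes 77 estimates were below 0, so the other members are not genes without a difference. With 14 promoters that hold the motif, this comparison cannot decide on a part of the motif, which was not tested. The windows of the 3 members with a motif and the smallest interaction p are shown, 5′ to 3′ on the strand of the gene, with the motif, or its reverse complement in the case of *Ndufs6*, in capitals. They are at chr2:10080433-10080474, chr5:108434415-108434474 and chr13:73328483-73328523, all on the minus strand, and the interactions of the genes were -0.42, -0.64 and -0.46.
Atp5c1: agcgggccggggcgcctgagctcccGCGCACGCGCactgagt
Atp5k: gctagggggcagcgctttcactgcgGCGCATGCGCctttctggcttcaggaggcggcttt
Ndufs6: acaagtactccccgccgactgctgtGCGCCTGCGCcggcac
*Atp5c1* and *Atp5k* encode subunits of ATP synthase and *Ndufs6* a subunit of complex I.

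Genes of ribosomal proteins also held many negative interactions, but they rose after UUO. Of 82 genes of the cytosolic ribosome, 80 rose in KDM6A Ctrl and 76 in KDM6A TubKO kidneys after UUO, with median responses of 0.97 and 0.74. A negative interaction at unadjusted p was found for 32 (39.0%) and a positive one for 1, and the median was -0.25. The list mean was 6.48 to 6.66 in KDM6A Ctrl sham and 6.74 to 6.95 in KDM6A TubKO sham kidneys, and the UUO groups overlapped from 7.33 to 7.69 and from 7.37 to 7.72. *Rpl41*, a protein of the large subunit, was at 133 to 153 and 169 to 198 FPKM in the sham groups and at 272 to 370 and 231 to 304 FPKM in the UUO groups (interaction -0.52, adjusted p = 0.0771). Of 78 proteins of the mitochondrial ribosome, 13 were negative and 1 positive (median -0.11, and -0.16 and -0.18 in the higher and lower series), with 8 negative without KDM6A Ctrl UUO kidney 1 or KDM6A TubKO sham kidney 2 and with 8 negative and 3 positive (median -0.04) once the trend on transcript length, described next, was removed. Of 21 genes of the citric acid cycle and glucose synthesis, 4 were negative and none positive (median -0.18), among them *Mdh2*, a malate dehydrogenase, and *Suclg1*, a succinyl-CoA ligase subunit. Without KDM6A TubKO UUO kidney 2, 11 of the 21 were negative (median -0.28), and the median was -0.19 and -0.30 in the higher and lower series.

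Transcript length moved with these results. Among 1045 genes with transcripts of up to 1000 bases, 3.44% had a positive and 16.4% a negative interaction at unadjusted p. Among 1353 genes over 6000 bases, 18.3% were positive and 1.92% negative. The median length was 3574 bases for the positive genes and 1856 bases for the negative ones. With each library's linear trend on length removed, the shares were 7.94% and 8.80% in the shortest and 6.73% and 4.80% in the longest genes. Over 91 genes of oxidative phosphorylation, 36 were then negative and 4 positive (median -0.18), and over 82 genes of the cytosolic ribosome 18 were negative and 1 positive (median -0.13). With quantile normalization, which gives every library the same distribution of levels, 29 genes of oxidative phosphorylation were negative and 3 positive (median -0.17), and 15 of the cytosolic ribosome were negative and none positive (median -0.15). The interaction of *Atp5e* moved from -1.04 to -0.87. In the higher and lower series the medians were -0.22 and -0.39 for oxidative phosphorylation, with 21 and 28 negative genes, and -0.30 and -0.29 for the cytosolic ribosome, with 28 and 5 negative genes. How much of the difference in short genes came with the length trend beyond these values was not tested.

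**Figure D2:**
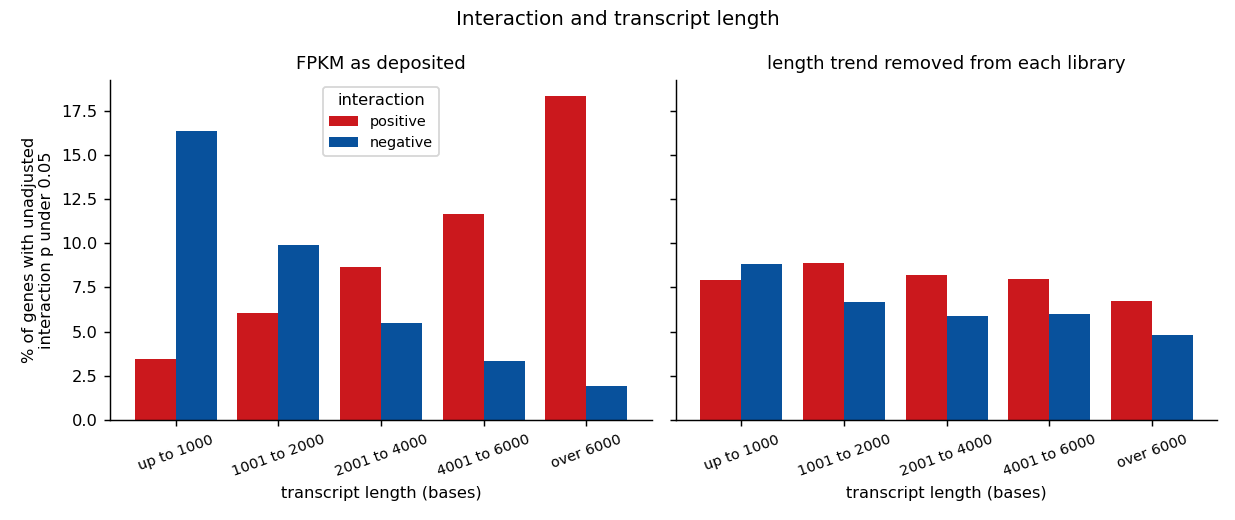
Share of genes (% of the genes in each class of transcript length, in bases) with a positive or negative interaction at unadjusted p under 0.05, in FPKM as deposited and with the trend on length removed from each library. Negative interactions fell from 16.4% to 1.92% and positive ones rose from 3.44% to 18.3% between the shortest and the longest genes, and this gradient was small once the trend was removed.

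Genes of cholesterol synthesis had interaction estimates below 0 throughout, of which 9 passed at unadjusted p. The list holds mainly enzymes of the pathway from acetyl-CoA to cholesterol, with the regulators *Srebf2* and *Insig1*. All 22 estimates were below 0, with a median of -0.37, and the 9 (40.9%) that passed were all negative. Over all genes 6276 of 13842 estimates were below 0. In KDM6A Ctrl kidneys 9 of the 22 genes rose and 7 fell after UUO (median -0.00), and in KDM6A TubKO kidneys 4 rose and 11 fell (median -0.21). The list mean was 3.23 to 3.45 in KDM6A Ctrl UUO kidneys and 2.96 to 3.21 in KDM6A TubKO UUO kidneys, which did not overlap, whereas the sham groups did (3.02 to 3.40 and 3.35 to 3.53). The median genotype difference was 0.17 in sham and -0.23 in UUO kidneys. By adjusted p, 1 of the 22 genes was higher in KDM6A TubKO sham kidneys and 3 were lower in KDM6A TubKO UUO kidneys, with none the other way.

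*Fdps*, which makes farnesyl diphosphate, was at 2.51, 3.17, 3.35, 3.41 and 2.82 FPKM in KDM6A Ctrl sham kidneys and at 7.82, 9.37, 7.16, 7.16 and 6.94 FPKM after UUO. In KDM6A TubKO kidneys it was at 4.04, 3.75, 3.95, 3.44 and 3.86 FPKM after sham surgery and at 6.01, 6.30, 6.15, 6.70 and 6.59 FPKM after UUO. Neither pair of groups overlapped, and the genotypes were in opposite order before and after obstruction (interaction -0.49, standard error 0.11, adjusted p = 0.0771). *Mvd*, mevalonate diphosphate decarboxylase, was at 8.38 to 13.4 and 7.08 to 10.1 FPKM in the UUO groups (interaction -0.68, adjusted p = 0.155). The list median was -0.25 and -0.39 in the higher and lower series, -0.34 with the length trend removed and -0.32 without KDM6A Ctrl sham kidney 1, the lowest of its group. It was -0.42 to -0.32 over all kidneys left out in turn.

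**Figure D3:**
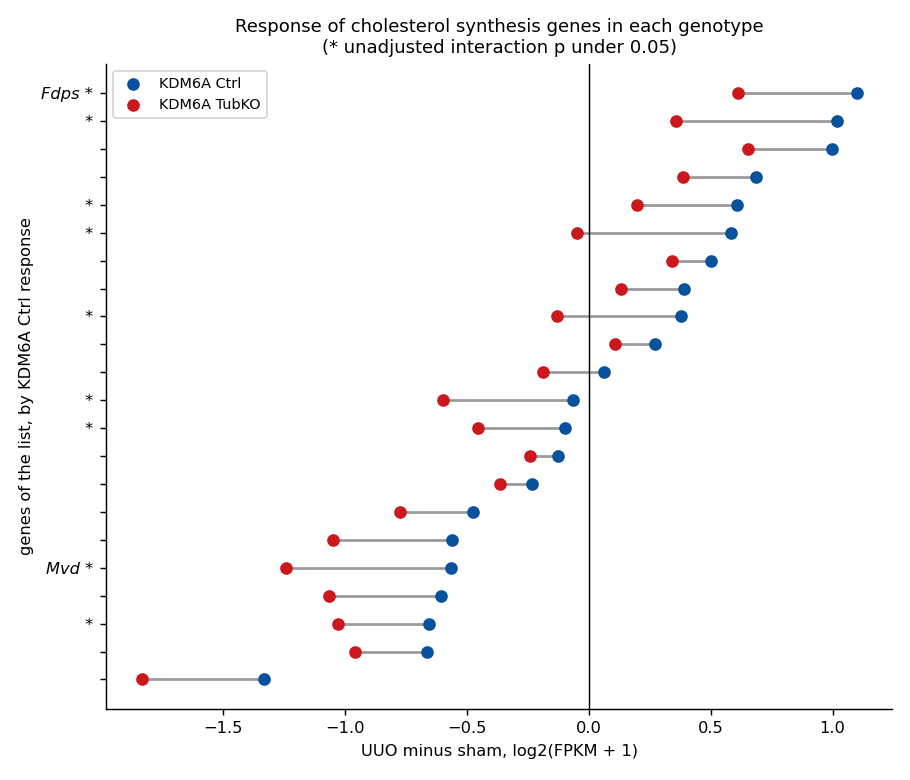
Response to UUO (UUO minus sham, log2(FPKM + 1)) of the 22 genes of cholesterol synthesis in KDM6A Ctrl and KDM6A TubKO kidneys, each point a difference of group means and each line joining the genotypes, with *Fdps* and *Mvd* named and an asterisk at the 9 genes with an unadjusted interaction p under 0.05. The KDM6A TubKO response lay below the KDM6A Ctrl response for all 22.

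Chaperones of the heat shock and endoplasmic reticulum stress responses had smaller responses in KDM6A TubKO kidneys by their estimates, and few passed. Of 21 genes, 14 rose and 1 fell in KDM6A Ctrl kidneys (median 0.74), and 7 rose and 4 fell in KDM6A TubKO kidneys (median 0.25). The interaction was below 0 for 20 of 21 (median -0.34), with 5 negative and none positive at unadjusted p. The list means overlapped between genotypes, at 5.54 to 5.69 and 5.56 to 6.07 in sham kidneys and at 5.94 to 6.82 and 5.89 to 6.37 in UUO kidneys. With 1 kidney left out 3 to 9 were negative, the 9 without KDM6A Ctrl UUO kidney 5, and 3 were negative with quantile normalization (median -0.21) and with the length trend removed (median -0.30). *Sdf2l1*, a chaperone partner of the endoplasmic reticulum, was at 2.20 to 6.38 and 5.08 to 12.7 FPKM in the sham groups and at 9.15 to 20.004 and 7.67 to 13.6 FPKM in the UUO groups of KDM6A Ctrl and KDM6A TubKO mice (interaction -1.27, adjusted p = 0.132). *Dnajb1*, a cochaperone of HSP70, was at 24.2, 29.3, 17.95, 12.8 and 11.7 FPKM in KDM6A Ctrl UUO kidneys and at 10.2 to 12.4 FPKM in KDM6A TubKO UUO kidneys (interaction -0.84, adjusted p = 0.133). The high KDM6A Ctrl UUO kidneys were those of the lower series. The list median was -0.32 in that series and -0.17 in the higher series.

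Genes of the proximal tubule, which reabsorbs most of the filtrate, fell in both genotypes and fell further in KDM6A TubKO kidneys by their estimates. All 24 fell in each genotype, with median responses of -1.56 and -2.15. The interaction was below 0 for 23 of 24 (median -0.48), and 4 were negative and none positive at unadjusted p. *Slc34a1*, the main phosphate transporter, was at 123 to 240 FPKM in KDM6A Ctrl UUO and at 64.3 to 288 FPKM in KDM6A TubKO UUO kidneys (interaction -0.94, adjusted p = 0.276). *Hnf4a*, a transcription factor of the proximal tubule, was at 56.3 to 78.5 and 38.7 to 75.8 FPKM (interaction -0.47, adjusted p = 0.253). KDM6A TubKO UUO kidney 2 was the highest of its group, with a list mean of 6.31 against 4.92 to 5.60 in the other kidneys. Without it 9 genes were negative and the median was -0.62. Without KDM6A Ctrl sham kidney 1, KDM6A Ctrl UUO kidney 3 or KDM6A TubKO UUO kidney 1 or 4, 2 genes were negative, and over all kidneys left out in turn the median was -0.62 to -0.21. It was -0.23 in the higher series and -0.49 in the lower series, and with quantile normalization it was -0.33 and 1 gene was negative.

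Markers of tissue around and within the kidney moved with the groups as well. The urothelium list, of the lining of the renal pelvis and ureter, holds 20 measured plaque proteins, keratins and regulators. All 20 rose in KDM6A Ctrl and 11 in KDM6A TubKO kidneys (medians 2.43 and 1.08), with a median interaction of -1.26 and 5 negative at unadjusted p. The count was 2 to 16 with 1 kidney left out (16 without KDM6A Ctrl UUO kidney 1, median -1.65, and 2 without KDM6A Ctrl UUO kidney 2, median -0.84), and it was 11 in the higher series and 0 in the lower one (medians -1.47 and -1.05). Its mean ranged from 2.99 to 5.99 in KDM6A Ctrl UUO and from 2.31 to 3.74 in KDM6A TubKO UUO kidneys, against 1.55 to 2.19 and 1.00 to 1.74 in the sham groups. *Krt7*, a keratin of simple epithelia, was at 33.1 to 73.5 and 27.5 to 43.0 FPKM in the UUO groups (interaction -0.69, adjusted p = 0.213). Among 15 smooth muscle genes, *Cnn1*, *Actg2*, *Lmod1* and *Myh11* were negative and *Hspb6* positive, and *Cnn1*, calponin, was at 0.890 to 6.45 FPKM in KDM6A Ctrl UUO and 0.156 to 0.863 FPKM in KDM6A TubKO UUO kidneys, which did not overlap. The median over the 15 was -0.16, and -0.45 and -0.06 in the higher and lower series. With the urothelium mean as a covariate, the median interaction was -0.28 for oxidative phosphorylation (40 negative), -0.22 for the cytosolic ribosome (18 negative), -0.43 for cholesterol synthesis (10 negative), -0.39 for the chaperones (5 negative) and the proximal tubule (2 negative) and 0.12 for the zinc finger genes below (52 positive).

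Of 6 red blood cell genes, 5 were negative (median -1.33) and all were below 0, and 1 fell in KDM6A Ctrl and 6 in KDM6A TubKO kidneys. Within the higher series none passed (median -0.73), and within the lower series 1 did (median -1.47). *Hbb-bs*, a beta globin, was at 59.1 to 250 and 162 to 314 FPKM in the sham groups and at 104 to 138 and 47.7 to 128 FPKM in the UUO groups (interaction -1.46, adjusted p = 0.154). Globin RNA marks blood in the tissue, and its part in the other results was not tested. Of 12 podocyte genes, which mark the glomerular filter, 3 were negative and none positive (median -0.24). None passed within either series (medians -0.35 and -0.13), and 5 were negative without KDM6A TubKO sham kidney 1 or with the length trend removed.

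**Figure D4:**
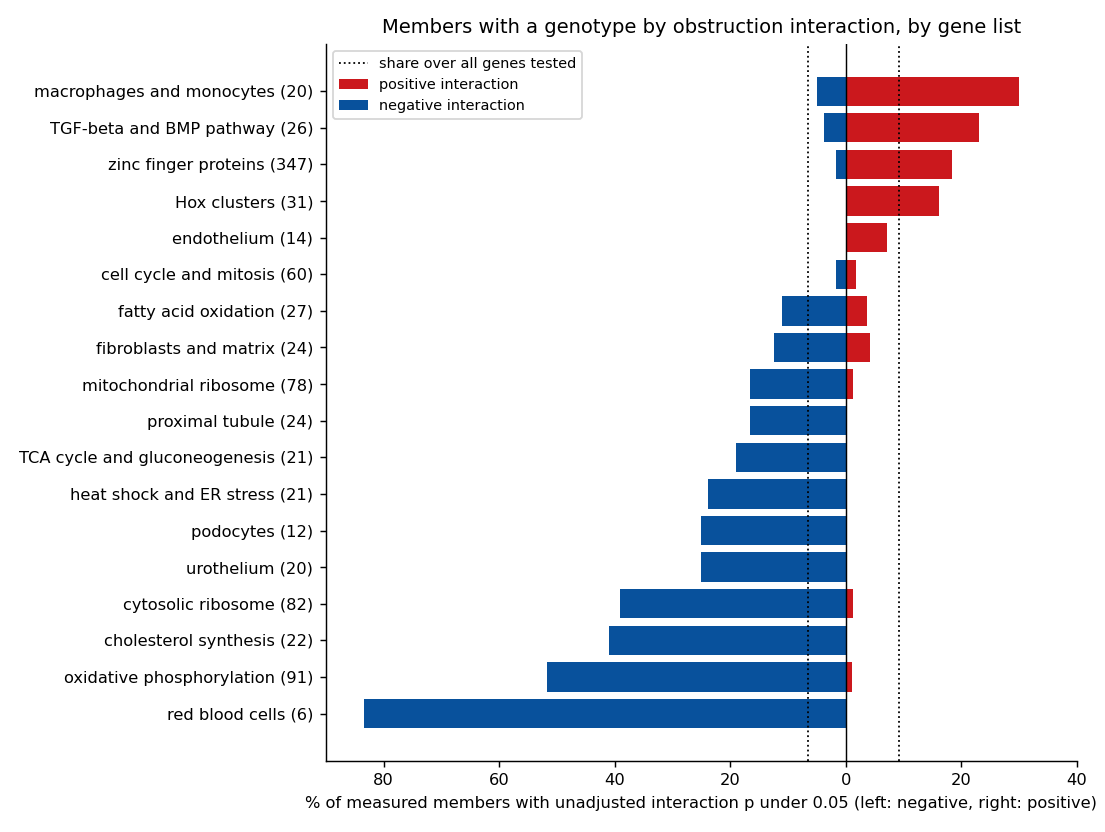
Share of the measured members of each gene list (number in brackets) with a positive (right) or negative (left) interaction at unadjusted p under 0.05, with dotted lines at the shares over all genes (9.12% and 6.57%). Oxidative phosphorylation (51.6% negative), cholesterol synthesis (40.9%) and the cytosolic ribosome (39.0%) lay to the left of 0, and macrophage (30.0% positive), TGF-beta (23.1%) and zinc finger genes (18.4%) to the right.

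Zinc finger genes were the largest group with a larger rise in KDM6A TubKO kidneys. Most genes named *Zfp* encode proteins with C2H2 zinc fingers that bind DNA, many of them with a KRAB domain that recruits silencing complexes. Of 347 measured, 64 (18.4%) had a positive and 6 (1.73%) a negative interaction at unadjusted p, and 259 estimates were above 0, with a median of 0.14. In KDM6A Ctrl kidneys 212 rose and 12 fell (median 0.31), and in KDM6A TubKO kidneys 238 rose and 10 fell (median 0.47). The list mean was 1.97 to 2.06 in KDM6A Ctrl UUO and 2.02 to 2.09 in KDM6A TubKO UUO kidneys, and 1.62 to 1.74 and 1.49 to 1.65 in the sham groups, which overlapped in both cases.

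*Zfp386* was at 3.54 to 4.72 FPKM in KDM6A Ctrl UUO kidneys and at 6.08 to 6.21 FPKM in KDM6A TubKO UUO kidneys, while the sham groups, at 3.73 to 4.29 and 3.19 to 4.10 FPKM, overlapped (interaction 0.54, adjusted p = 0.0536). *Zfp445*, which protects imprinted methylation in the early embryo, was at 11.4 to 13.8 and 14.1 to 16.3 FPKM in the UUO groups (interaction 0.51, adjusted p = 0.0771). *Zfp949* was at 4.40 to 5.43 and 5.10 to 7.19 FPKM (interaction 0.65, adjusted p = 0.0653). With the length trend removed, 52 of 343 were positive and 7 negative (median 0.11). The list median was 0.01 with 19 positive and 11 negative genes in the higher series, where the median of all genes was -0.06, and 0.28 with 73 positive and 1 negative in the lower series, where that of all genes was 0.12. The lower series holds only 1 KDM6A TubKO sham kidney, kidney 1, which had the lowest list mean of its group (1.49 against 1.57 to 1.65) and the lowest slope on length of all libraries, so that the series and this library cannot be told apart.

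The SR, *Rbm* and *Cep* families were picked after the values of single genes had been seen and are given as counts only. Of 10 SR splicing factors 4 were positive and none negative, of 40 *Rbm* RNA-binding proteins 12 were positive and 3 negative, and of 33 centrosomal *Cep* proteins 10 were positive and none negative at unadjusted p. Without KDM6A Ctrl sham kidney 1, 7 *Rbm* genes were positive, and without KDM6A Ctrl UUO kidney 1 or KDM6A TubKO sham kidney 2, 6 *Cep* genes were. Of 31 *Hox* genes, which pattern the body axis and are classical targets of H3K27 methylation, 5 were positive and none negative, and 28 estimates were above 0 (median 0.22). *Hoxb3* was at 8.36 to 13.1 FPKM in KDM6A Ctrl UUO and 12.6 to 17.98 FPKM in KDM6A TubKO UUO kidneys (interaction 0.61, adjusted p = 0.0985), and *Hoxa3* was at 1.92 to 3.18 and 3.14 to 3.81 FPKM (interaction 0.44, adjusted p = 0.109). The *Hox* median was 0.12 and 0.26 in the higher and lower series, 8 were positive with the length trend removed, and 3 to 8 were positive with 1 kidney left out (8 without KDM6A Ctrl UUO kidney 5, and 3 without KDM6A Ctrl UUO kidney 3, KDM6A TubKO sham kidney 3 or KDM6A TubKO UUO kidney 1, 4 or 5).

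Macrophage genes rose in both genotypes, and a share of them rose further in KDM6A TubKO kidneys by their estimates. All 20 rose in each genotype, with median responses of 3.11 and 3.49. At unadjusted p 6 (30.0%) were positive and 1 negative, with a median of 0.17. Of the 20 estimates 15 were above 0 and 5 below. *Ccr2*, the receptor that brings monocytes into tissue, was at 8.54 to 16.7 FPKM in KDM6A Ctrl UUO and at 17.7 to 28.3 FPKM in KDM6A TubKO UUO kidneys, which did not overlap (interaction 0.66, adjusted p = 0.208). *Cx3cr1*, a receptor of monocytes and resident macrophages, was at 3.25 to 9.04 and 10.5 to 17.3 FPKM (interaction 0.72, adjusted p = 0.223), and *Mrc1*, the mannose receptor, at 8.93 to 14.5 and 15.9 to 22.05 FPKM (interaction 0.50, adjusted p = 0.259). *Itgam*, the integrin CD11b, was at 3.52 to 9.29 and 6.31 to 10.9 FPKM (interaction 0.72, adjusted p = 0.169). *Ccl12*, a chemokine that attracts monocytes, was at 12.2 to 34.9 and 33.4 to 72.2 FPKM (interaction 1.10, adjusted p = 0.305). The leukocyte gene *Ptprc* (0.33, adjusted p = 0.343) and the macrophage gene *Adgre1* (0.32, adjusted p = 0.559) did not pass at unadjusted p. The list changed sign between the number series, with medians of -0.25 in the higher and 0.58 in the lower series. In the higher series 4 of the 20 genes were negative and none positive at unadjusted p. Over all kidneys left out in turn the median was 0.03 to 0.33. The list mean of KDM6A Ctrl sham kidney 3, at 2.05, was above that of its group (1.22 to 1.45 in the rest), and without it 3 genes were positive and the median was 0.03. The count was also 3 without KDM6A Ctrl UUO kidney 2 or 3 or KDM6A TubKO UUO kidney 5.

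Of 26 genes of the TGF-beta and BMP pathway, 6 (23.1%) were positive and 1 negative (median 0.08). In the higher series 1 was positive (median -0.02) and in the lower series 5 were (median 0.25), and 3 were positive without KDM6A Ctrl sham kidney 3, KDM6A Ctrl UUO kidney 2, KDM6A TubKO sham kidney 1 or KDM6A TubKO UUO kidney 5. *Inhbb*, a subunit of activin B, was at 0.353 to 1.84 and 0.200 to 0.590 FPKM in the sham groups and at 4.49 to 6.36 and 6.46 to 11.9 FPKM in the UUO groups, which did not overlap (interaction 0.97, adjusted p = 0.107). *Bmpr2*, a BMP receptor, was at 4.75 to 5.69 and 3.32 to 4.62 FPKM in the sham groups, which did not overlap, and at 5.99 to 6.90 and 6.10 to 7.12 FPKM in the UUO groups (interaction 0.37, adjusted p = 0.107). With the length trend removed the interaction of *Bmpr2* was 0.22, and 4 genes of the list were positive and 1 negative (median 0.03). Of 14 endothelial genes, *Emcn*, an endothelial sialomucin, was the 1 at unadjusted p (7.14%, interaction 0.37), a share under that of all genes. The list median was 0.22, but it was -0.17 in the higher series, with 2 negative, and 0.49 in the lower one, and 1 to 5 were positive with 1 kidney left out (5 without KDM6A Ctrl sham kidney 5).

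**Figure D5:**
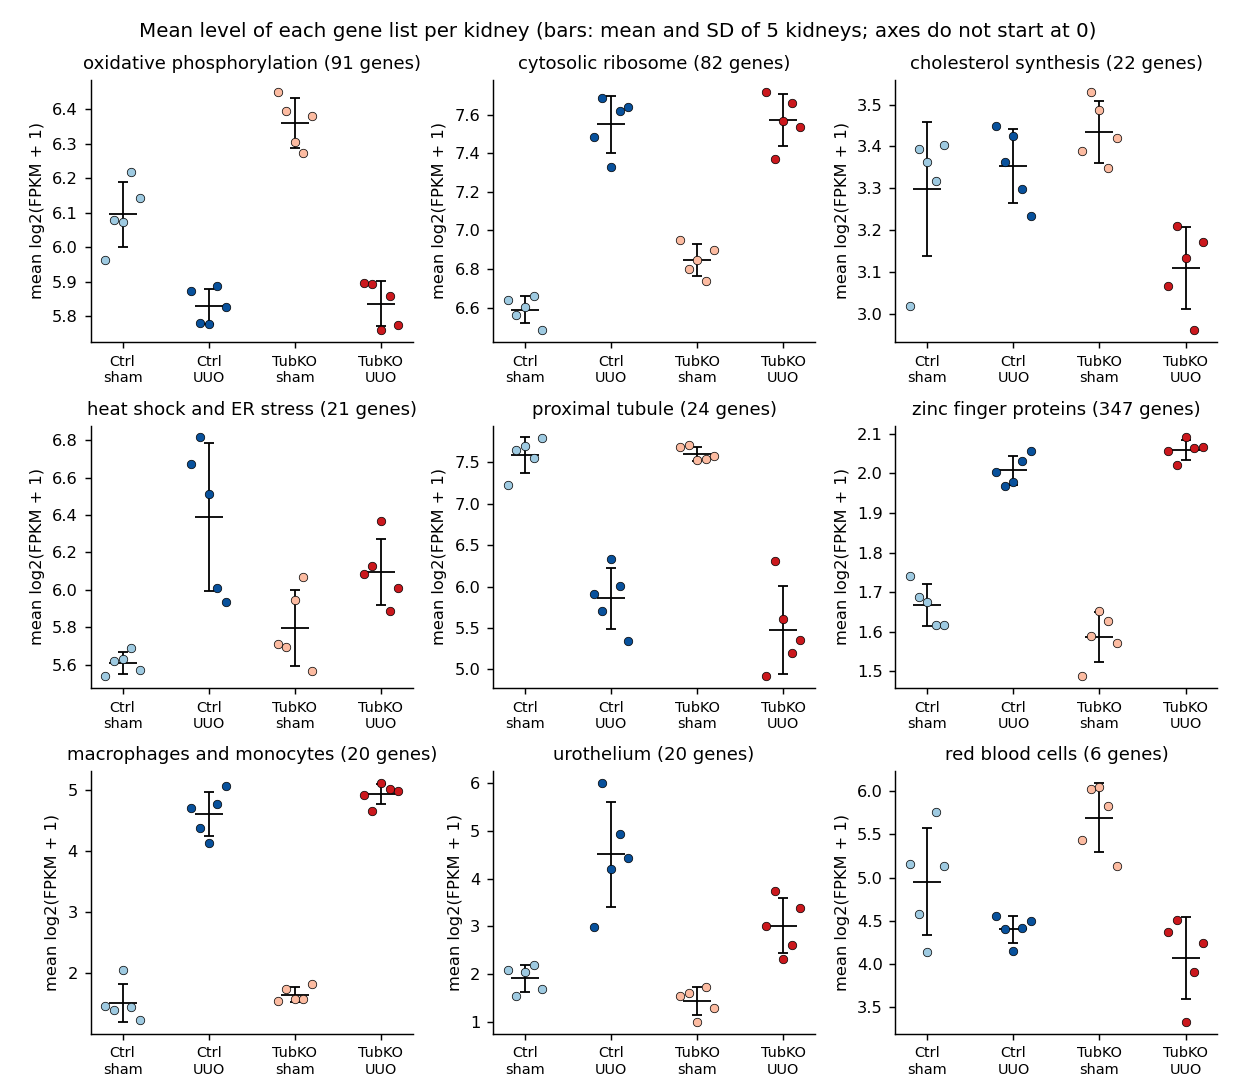
Mean log2(FPKM + 1) of 9 gene lists in each kidney (points), with the mean and SD of the 5 kidneys of a group. Oxidative phosphorylation and the cytosolic ribosome were separated between genotypes in sham kidneys, and cholesterol synthesis in UUO kidneys. The axes do not start at 0.

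Several lists of obstructive injury and metabolism held few genes, by number, that passed at unadjusted p, though not always a share below that of all genes. Of 20 tubule injury genes, all of which rose in each genotype (medians 3.17 and 3.20), 1 was positive. Of 24 fibroblast and matrix genes, all of which rose in each genotype (medians 2.65 and 2.58), 1 was positive and 3 (12.5%) negative. Over all genes the shares were 9.12% positive and 6.57% negative. *Col1a1* had an interaction of 0.11 (standard error 0.46). Of 19 immediate early genes and of 18 genes of MHC and antigen presentation none passed at unadjusted p in either direction. Without KDM6A Ctrl UUO kidney 3, 2 MHC genes were negative (median -0.21), and 0 to 2 tubule injury genes were positive with 1 kidney left out. Of 27 genes of fatty acid oxidation 1 was positive and 3 (11.1%) negative (median -0.05, with 5 negative without KDM6A TubKO UUO kidney 2). Of 34 genes of PPAR signaling 3 were positive and 3 negative (8.82% each, median -0.05). Values within the number series were apart here too. In the higher series 7 fibroblast and matrix genes were negative (median -0.23), 6 MHC genes were negative (median -0.46) and 5 immediate early genes were positive (median 0.34). In the lower series the medians were 0.37, 0.24 and 0.29, with 1, 2 and 2 positive genes. The tubule injury median was 0.01 in the higher and 0.44 in the lower series, and -0.03 without KDM6A Ctrl sham kidney 3. The difference between the series was not tested. *Ppargc1a* and *Ppara* had interactions of 0.11 and 0.23 (standard errors 0.15 and 0.24). The precision was low for the strongest injury genes, and *Havcr1* had an interaction of 0.75 with a standard error of 0.98.

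Single genes are given next, some of which varied widely within a group or share bases with another gene. *Itga9*, an integrin of lymphatic endothelium and smooth muscle, was at 0.718, 2.92, 0.729, 4.06 and 1.43 FPKM in KDM6A Ctrl UUO kidneys and at 7.11, 4.37, 7.35, 5.23 and 6.02 FPKM in KDM6A TubKO UUO kidneys, which did not overlap, while the sham groups, at 0.714 to 1.18 and 0.265 to 1.18 FPKM, did (interaction 1.38, standard error 0.35, adjusted p = 0.0886). *Hr*, a histone demethylase of the JmjC family and a nuclear receptor corepressor, was at 2.20, 2.82, 1.60, 2.14 and 1.97 FPKM in KDM6A Ctrl UUO kidneys and at 0.770, 0.811, 1.09, 0.889 and 0.835 FPKM in KDM6A TubKO UUO kidneys (interaction -0.62, adjusted p = 0.0618). Its transcripts differed in direction, with mean levels in these groups of 2.05 and 0.00 FPKM for Hr-205 and of 0.72 and 1.09 FPKM for Hr-203. *Ptpn2*, a phosphatase that limits cytokine signaling, was at 15.98 to 19.5 and 20.5 to 25.9 FPKM in the UUO groups (interaction 0.60, adjusted p = 0.0536).

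*Slc12a2*, the cotransporter NKCC1, was at 7.998 to 13.1 and 5.34 to 8.09 FPKM in the sham groups and at 10.2 to 12.3 and 10.8 to 12.5 FPKM in the UUO groups (interaction 0.76, adjusted p = 0.0653). *Tmbim6*, an inhibitor of cell death in the endoplasmic reticulum, was at 342 to 383 and 404 to 442 FPKM in the sham groups, which did not overlap, and at 258 to 282 and 234 to 260 FPKM after UUO (interaction -0.39, adjusted p = 0.0618). *Mpc2*, a subunit of the mitochondrial pyruvate carrier, was at 20.5 to 27.8 and 32.4 to 39.4 FPKM in the sham groups, which did not overlap, and at 17.5 to 20.8 and 17.1 to 21.0 FPKM after UUO (interaction -0.52, adjusted p = 0.0771). *Pdk4*, which inhibits pyruvate dehydrogenase, had the largest positive interaction among genes that passed at unadjusted p (2.27, standard error 0.87, adjusted p = 0.223). Its KDM6A Ctrl sham levels were 2.62 to 101 FPKM, and the interaction was 4.39 in the lower series and -0.58 in the higher series.

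The largest negative interaction was that of *Crispld2*, a secreted protein (-2.12, standard error 0.88, adjusted p = 0.250), with 0.692 to 14.7 FPKM in KDM6A Ctrl UUO and 0.298 to 9.40 FPKM in KDM6A TubKO UUO kidneys. *Slc39a9*, a zinc transporter, had an interaction of 1.92, but levels within KDM6A Ctrl UUO kidneys ran from 0.503 to 6.37 FPKM and within KDM6A TubKO sham kidneys from 0.425 to 5.64 FPKM, and the gene shares 459 bases with *Erh* on the opposite strand. *Pfn3*, a profilin (interaction -1.19, adjusted p = 0.0536), lies with all of its 545 bases within *Slc34a1* on the opposite strand. *Slc34a1* had estimates in the same direction, so the values of *Pfn3* are uncertain.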

How the data were processed

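RNA of 20 left kidneys was sequenced, 1 library per full mouse identifier, which is a number with a suffix. The p-values measure the spread between the kidneys of a group, taken as separate although kidneys within a group shared numbers. Per the labels and the study's methods, the authors trimmed reads with cutadapt, aligned them with HISAT2 to GRCm38 and assembled and quantified genes with StringTie before testing with Ballgown. The submitters' processing notes name these tools with no versions. The deposited values are FPKM per gene and per transcript, and the strand setting is not given in the sources used here. The depth reached by each library is therefore unknown, and no counting interval was computed.

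A group mean of 0.5 FPKM or more in any group was required for a test, and all 13842 genes met it. The interaction was fitted on log2(FPKM + 1) in limma 3.58.1 (R 4.3.3) with a trended prior variance and 4 group means, and p-values were adjusted over all genes by the Benjamini-Hochberg method. Differences on this scale understate the change of low genes. Summaries used Python 3.11.15 and pandas 2.3.3. Scripts were tested on simulated data. Positions were taken from GENCODE (GRCm38), with a transcript length for 13635 genes. A list's members count as positive or negative at an unadjusted p under 0.05.

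Genes were named by a rule: adjusted p under 0.05, the 15 smallest p and the 10 largest interactions per direction with 1 FPKM or more as the mean of some group, up to 4 members per list described, and genes the study names. *Atp5s*, *Myh11* and the members with printed windows fall outside it and were chosen after their values were seen. The members, the 52 lists and the tests were chosen with earlier results of these data known, and 3 more lists after seeing these values. Alternatives were the pseudocount, the filter, scaling, the length trend, array weights, the prior, an F-test after Ballgown's description, number series or urothelium level as a covariate, and leaving out each kidney. The number series taken singly and the shared identifier number as a random effect were chosen after seeing the data. Some members of the lists are not reported here by name.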

Additional observations from a re-analysis of the deposited data

Results flagged for a closer look

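The 4 genes whose response differed between genotypes by the test of the interaction itself were *Atp5e* (-1.04), *Foxm1* (-0.95), *Gm6133* (1.15) and *Rbak* (0.70), on the log2(FPKM + 1) scale.

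Of 236 sets of 5 kidneys, 1 for each of 55 lists and of the 4 genes above in each group, 11 held a kidney far from the other 4, and chance gives about 1 in 20. The adrenal cortex list was at 2.71 and the perirenal fat list at 4.73 in KDM6A Ctrl UUO kidney 5. The perirenal fat list was at 2.42 in KDM6A TubKO sham kidney 1. The cholesterol synthesis list was at 3.02 in KDM6A Ctrl sham kidney 1, the lowest of its group. The macrophage list was at 2.05 in KDM6A Ctrl sham kidney 3, the highest of its group, and in the same kidney the cell cycle list was at 0.88 (0.57 to 0.60 in the others), the MHC list at 3.89 (3.44 to 3.54) and the chemokine list at 1.22 (0.77 to 0.86). The cell cycle list was at 0.67 in KDM6A TubKO sham kidney 1 (0.55 to 0.58 in the others), the list of immediate early genes at 2.21 in KDM6A Ctrl sham kidney 2 (2.71 to 2.84) and the list of KDM6, PRC2 and MLL3/4 complexes at 2.96 in KDM6A TubKO UUO kidney 3 (2.85 to 2.87). Without KDM6A Ctrl UUO kidney 5 the median interaction was -0.27 for oxidative phosphorylation and -0.40 for cholesterol synthesis. Without KDM6A Ctrl sham kidney 1 the median for oxidative phosphorylation was -0.23, the weakest over all kidneys left out in turn, with 42 genes negative.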

How the results depend on the processing

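At adjusted p, 2 genes were positive and 2 negative. The positive count was 1 with a pseudocount of 0.1, 6 with upper quartile rescaling, 4 with the length trend removed, 17 with the F-test after Ballgown, 8 with the number series as a covariate and 0 with the urothelium covariate. The negative count was 1 with quantile normalization, 4 with array weights, 10 with that F-test, 7 with the number series as a covariate and 0 with the urothelium covariate. In the higher series alone 5 were positive and 25 negative, and in the lower series 8 and 1. At unadjusted p, the higher series had 528 positive genes and the lower series 304 negative ones. With 1.5-fold added, the genes with a positive interaction at the study threshold numbered 373 with a pseudocount of 0.1 and 630 in the lower series, and the genes with a negative interaction at the study threshold 577 in the higher series. With 1 kidney left out, the positive and negative counts were 0 to 49 and 0 to 47 at adjusted p, 1073 to 1602 and 756 to 1048 at unadjusted p, and 145 to 257 and 198 to 350 at the 1.5-fold threshold. The interaction changed sign for *Pdk4* in the higher series (-0.58) and for *AL732309.1* in the lower series (-0.28). With the shared identifier number as a random effect, each of these counts was within 1.5 times its value above. The causes were not tested. No paired analysis was possible because the labels give the groups no shared replicate numbers. Unknown depth limits what can be said of low genes.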
